A study of Mus musculus with 6 samples.

Results

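Notch signalling was read from 10 genes: the receptors Notch1, Notch2 and Notch3, the ligands Dll1, Dll3 and Jag1, and the target genes Hes1, Hes5, Hey1 and Hey2. They were chosen by name as members of the pathway, and every probe set annotated to exactly 1 of these symbols was taken. All 10 had a probe set, out of 18193 genes that did, and together they held 16 probe sets of 34945 that named 1 gene. The samples were mouse neural stem cells that carry green fluorescent protein (GFP) as a readout of Spot14, which the gene Thrsp encodes. One group was Spot14 GFP positive and the other Spot14 GFP negative, with 3 biological replicates each per the labels, and both groups were neural stem cells by label. Strain, age, how the cells were obtained or sorted and what drives the reporter are not given in the sources used here. Total RNA was hybridised to oligonucleotide arrays, 1 per sample, and the values are log2 signals.

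Notch receptors are membrane proteins that are cleaved when a ligand on a neighbouring cell binds them. The released intracellular part joins the DNA-binding protein RBPJ and switches on target genes, among them the Hes and Hey repressors, which hold back neuronal differentiation genes. In the adult brain this pathway is known for keeping neural stem cells undifferentiated and quiescent, while differentiating progeny present the ligands.

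The letters that RBPJ is known to bind were looked for in the promoters of the members, since 3 of the 4 target genes separated the groups, as described further on. None of the 4 passed the threshold, and 13.8% of all genes tested were higher in GFP positive cells without overlap. RefSeq sequences of mouse assembly GRCm38.p6, from 250 bases before to 50 bases after the start of a gene, were at hand for 8 of the 10 members; Hes1 and Hey1 had none. The motif searched was GTGGGAA on either strand, which reads TTCCCAC where it lies on the opposite strand. Among the 8 members only Hes5 and Hey2 held it, each of them once on each strand. They were the only target genes with a sequence, so the search cannot set them against Hes1, whose groups overlapped. Of 32851 promoters of this length 6.38% held the motif at least once, and 0.1% held it on both strands. The 250 bases before the start of each gene are shown 5′ to 3′ on the strand of the gene, with matches in capitals; Hes5 lies on the plus strand at chr4:154960673-154960922 and Hey2 on the minus strand at chr10:30842784-30843033.
Hes5: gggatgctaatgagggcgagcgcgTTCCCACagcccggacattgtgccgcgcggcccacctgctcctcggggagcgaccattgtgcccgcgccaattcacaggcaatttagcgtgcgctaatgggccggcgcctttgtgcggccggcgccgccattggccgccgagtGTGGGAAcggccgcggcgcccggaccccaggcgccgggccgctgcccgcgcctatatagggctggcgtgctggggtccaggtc
Hey2: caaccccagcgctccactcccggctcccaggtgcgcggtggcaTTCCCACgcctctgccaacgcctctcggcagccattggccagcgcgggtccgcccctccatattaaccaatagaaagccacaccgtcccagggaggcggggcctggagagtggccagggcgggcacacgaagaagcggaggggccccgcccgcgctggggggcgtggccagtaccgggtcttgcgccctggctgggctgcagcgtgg
The matches of Hes5 began 226 and 83 bases before its start. One match of Hey2 began 207 bases before its start, and the other began 4 bases before it and ran across it, as the 30 bases of chr10:30842769-30842798 show.
Hey2 start: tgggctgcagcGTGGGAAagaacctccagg
A match describes these letters and was not tested as a binding site.

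Some facts of the arrays bear on all results. Across genes, which are not independent replicates, GFP positive arrays correlated with one another at 0.985 to 0.993 and GFP negative arrays at 0.952 to 0.982, where replicate 3 had the lowest mean correlation with its own group, 0.953. For the Gapdh control transcript, 3′ probes exceeded 5′ probes by 1.23 to 1.32 (log2) on GFP positive arrays and by 1.14, 2.33 and 1.65 on GFP negative replicates 1, 2 and 3. Thrsp itself averaged 14.21 ± 0.10 in GFP positive and 13.56 ± 0.15 in GFP negative cells (SD, n = 3 each), 1.57-fold apart without reaching the threshold (limma adjusted p = 0.0893). Of 10 neural stem cell markers 9 were tested and 2 rose, beside 2.35% of all genes tested. Prom1, the other marker, lay under log2 4 on every array. Among the defining ones Sox2 averaged 12.40 in GFP positive and 11.83 in GFP negative cells, Nes 11.22 and 11.71, and Gfap 11.76 and 10.26. Gfap (limma adjusted p = 0.0188) and Nr2e1 (0.86, limma adjusted p = 0.0308) passed the test, Gfap in 3 and Nr2e1 in 1 of the 6 fits that leave out 1 array. Gfap and Slc1a3 are also on the list of astrocyte markers given further on. Defining markers of endothelium were near background, with 7 of 8 under log2 4 on every array, and so were 7 of 8 microglial markers and 4 of 5 markers of mature oligodendrocytes. Of 8 pericyte and smooth muscle markers, cells in which Notch3 is also known, 5 were under log2 4 on every array. The linear signal summed over all 8 spanned 146 to 198 on the GFP positive arrays, against 236 to 583 on the GFP negative ones. Cspg4, which is also a marker of oligodendrocyte progenitors, carried most of it, and the sum without it was 61.9 to 71.5 on the GFP positive arrays, against 73.1 to 95.8 on the GFP negative ones. Acta2, an actin of smooth muscle, fell by 1.29 on the log2 scale (limma adjusted p = 0.0413), a call kept in 2 of those 6 fits. Of 6 oligodendrocyte progenitor markers 4 were tested and 0 passed, while Sox10 and Gpr17 lay under log2 4 on every array. Of the 4 tested, 3 were lower in GFP positive cells without overlap, Pdgfra (−0.54), Cspg4 (−1.31) and Olig2 (−0.20), and Olig1 overlapped (−0.11). Of all genes tested 11.5% were lower without overlap. The list of 6 summed to 10705 to 12208 on the GFP positive and 12149 to 14195 on the GFP negative arrays. Of 9 neuroblast and neuron markers 5 were tested and 1 fell, Elavl4 (−1.59, limma adjusted p = 0.0474), a call kept in 1 of the 6 fits; Dcx, Rbfox3 and Stmn2 lay under log2 4 on every array. That list summed to 22173 to 23036 on the GFP positive and 19178 to 28870 on the GFP negative arrays. The part of these differences in the results below was not tested.

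The groups were compared with limma over 10531 genes, each read from its brightest probe set, where a gene was tested if at least 3 of the 6 arrays read log2 4 or more. Each difference is the GFP positive mean less the GFP negative mean, in log2 units. Of all genes tested, 4.46% passed an adjusted p of 0.05, 2.35% higher and 2.11% lower. Of the 10 members 9 were tested and 0 passed. Without adjustment, limma put 4 members higher and 1 lower at p under 0.05, where 18.2% of all genes tested lay under that p, 9.92% higher and 8.28% lower. The groups did not overlap for 6 of the 9, namely Notch2, Notch3, Hes5, Hey1 and Hey2, higher in GFP positive cells, and Dll1, lower. Of all genes tested 25.3% did not overlap, 13.8% higher and 11.5% lower. The median difference was 0.34 for the 3 receptors, −0.34 for the 2 tested ligands and 0.69 for the 4 targets, beside 0.0049 for all genes tested. The ligand value lies midway between Dll1 (−0.57) and Jag1 (−0.12), whose groups overlapped. Among the receptors Notch1 was at −0.11. With 3 arrays against 3, an exact 2-sided permutation test of a single gene cannot go below p = 0.1. Any gene without overlap has this p in that test, so it adds nothing to the non-overlap of the 6 members. Because RNA came from bulk samples, fewer cells of a type and less RNA per cell cannot be told apart.

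**Figure D1:**
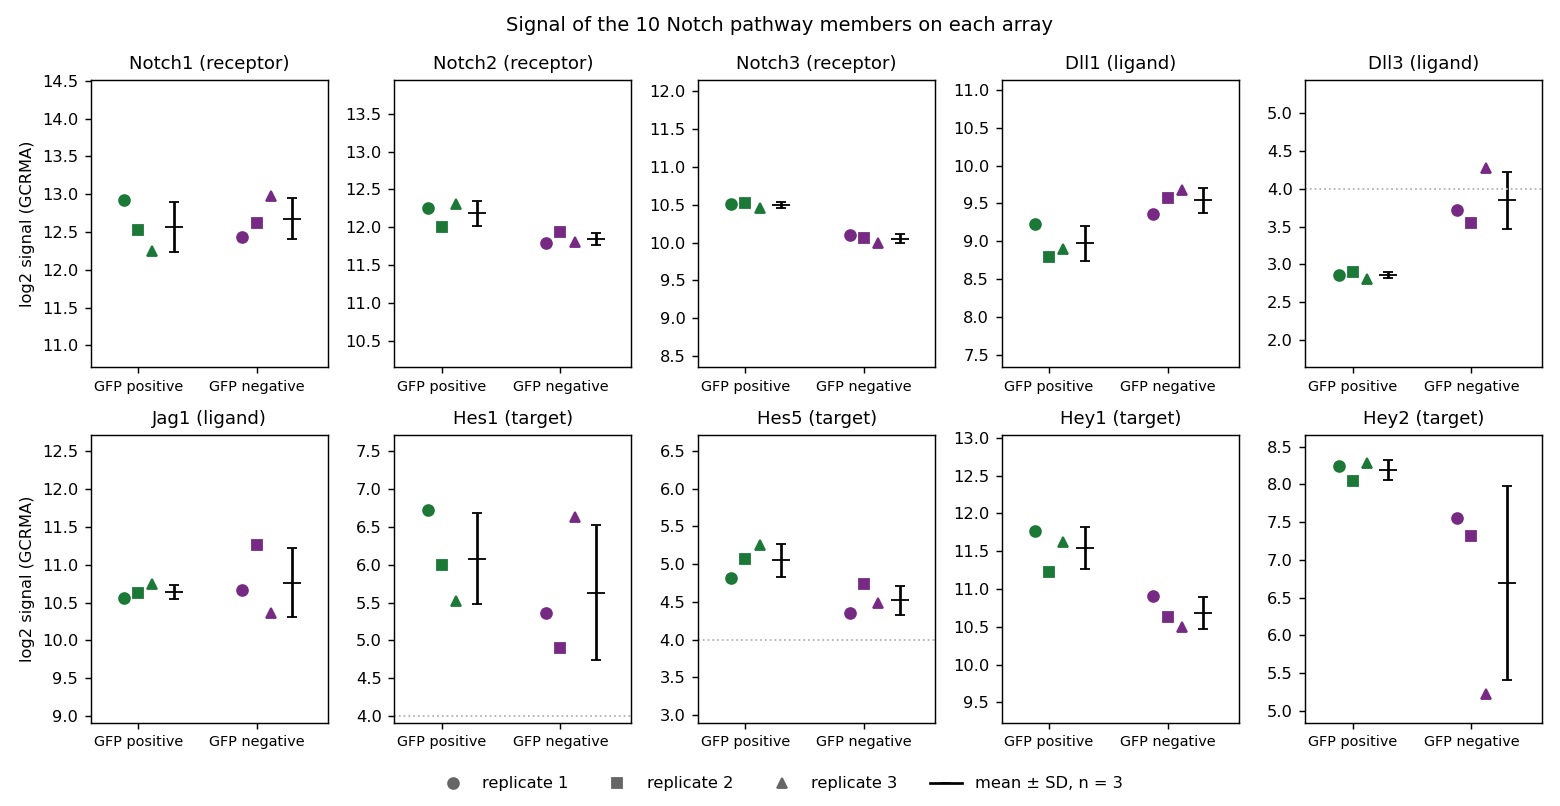
Log2 signal of each of the 10 members, 1 panel per gene, on the 3 GFP positive arrays (green, left) and the 3 GFP negative arrays (purple, right); symbols mark the replicate, black bars the mean ± SD (n = 3), the dotted line log2 4, and every vertical axis spans the same range. The groups are apart for Notch2, Notch3, Dll1, Dll3, Hes5, Hey1 and Hey2, and Hey2 of GFP negative replicate 3 lies at 5.22, far below the other arrays.

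The target genes Hey1 and Hey2 gave the largest differences among the members tested. Hey1, a basic helix-loop-helix repressor induced by Notch, read 11.77, 11.23 and 11.62 in GFP positive cells, against 10.91, 10.63 and 10.50 in GFP negative cells. Every GFP positive array lay above every GFP negative array. GFP positive cells averaged 11.54 ± 0.28 and GFP negative cells 10.68 ± 0.21 (SD, n = 3 each). They were 0.86 apart (SE 0.21, 95% interval 0.36 to 1.36), or 1.82-fold. This missed the threshold (limma adjusted p = 0.0749). Of 16 alternatives it passed in 1, with a mean-dependent variance and robust moderation (limma adjusted p = 0.0393). With array weights the difference was 0.59 (limma adjusted p = 0.102). Over the alternatives the limma adjusted p of Hey1 ran up to 0.315.

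Hey2, the close relative of Hey1, read 8.25, 8.04 and 8.28 in GFP positive cells, against 7.56, 7.32 and 5.22 in GFP negative cells. The groups did not overlap, and the low value of GFP negative replicate 3 set most of the spread. GFP positive cells averaged 8.19 ± 0.13 and GFP negative cells 6.70 ± 1.28 (SD, n = 3 each). They were 1.49 apart (SE 0.57, 95% interval 0.15 to 2.83), or 2.81-fold (limma adjusted p = 0.221). Without GFP negative replicate 3 the difference was 0.75 and passed (limma adjusted p = 0.0361). With array weights it was 0.84 (limma adjusted p = 0.0770). The size of the Hey2 difference was set by 1 array, and its direction was not.

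Hes5 and Hes1, the repressors most often read as Notch targets in neural stem cells, were dimmer signals with smaller differences. Hes5 read 4.82, 5.07 and 5.26 in GFP positive cells, against 4.35, 4.73 and 4.48 in GFP negative cells. The groups lay apart by a narrow gap, 0.53 between the means (SE 0.20, 95% interval 0.06 to 0.99), or 1.44-fold (limma adjusted p = 0.216). That probe set carries a suffix for possible cross-hybridisation. The other Hes5 probe set read 3.62, 4.10 and 4.65 in GFP positive cells, against 3.53, 3.08 and 4.06 in GFP negative cells, so that the groups overlapped near background (difference 0.57, SE 0.35). Both probe sets of Hes5 therefore had a like difference, and both lay close to the level below which genes were not tested.

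Hes1 varied as much within the groups as between them. It read 6.73, 6.00 and 5.52 in GFP positive cells, against 5.37, 4.90 and 6.63 in GFP negative cells. GFP negative replicate 3 was second only to GFP positive replicate 1, while for Hey2 it was the lowest array. The difference was 0.45 (SE 0.49, 95% interval −0.69 to 1.59; limma adjusted p = 0.709), and it ran from 0.08 to 0.95 as single arrays were left out, the highest without GFP negative replicate 3. It was 0.78 with array weights and 0.22 with the 3′ to 5′ signal of Gapdh as a covariate. As a ratio of GFP positive to GFP negative the interval for Hes1 ran from 0.622 to 3.00, which covers both directions.

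**Figure D2:**
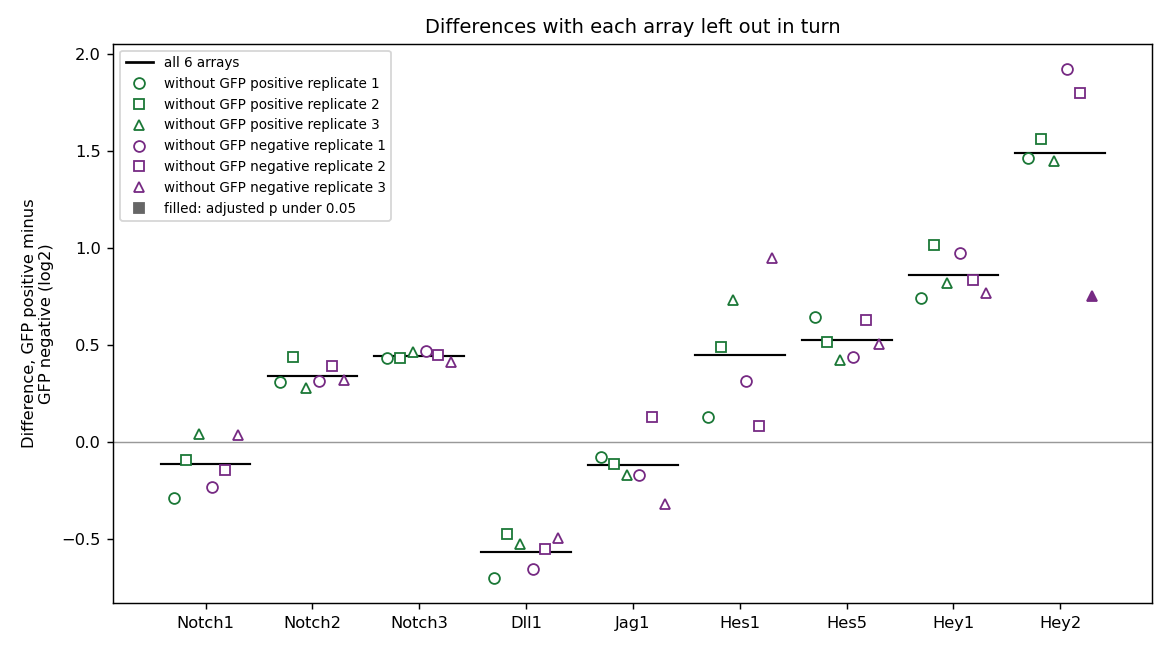
Log2 difference, GFP positive minus GFP negative, of the 9 tested members with all 6 arrays (black line) and with each array left out in turn (symbols; green for a GFP positive array left out, purple for a GFP negative one; filled where the limma adjusted p was under 0.05). The 1 filled symbol is Hey2 without GFP negative replicate 3, and the sign turns for Notch1 and Jag1.

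Among the receptors, Notch3 and Notch2 separated the groups and Notch1 did not. Notch3, a receptor of neural stem cells and of vascular mural cells, read 10.51, 10.52 and 10.45 in GFP positive cells, against 10.10, 10.06 and 9.99 in GFP negative cells. The arrays of each group lay within 0.11 of one another and the groups were 0.44 apart (SE 0.16, 95% interval 0.08 to 0.81), or 1.36-fold (limma adjusted p = 0.186). Its other probe set, without a cross-hybridisation suffix, read 10.42, 10.34 and 10.35 in GFP positive cells, against 9.74, 9.40 and 9.41 in GFP negative cells. That is a difference of 0.85 (SE 0.18), or 1.81-fold, which had a limma adjusted p of 0.0654 among 18742 probe sets tested, of which 2.37% passed. In a fit of genes without suffixed probe sets Notch3 passed (0.85, limma adjusted p = 0.0475). As a gene it passed in 2 of 16 alternatives, over which its limma adjusted p ran from 0.0344 to 0.537. The probe sets of Notch3 shared a direction and differed in size.

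Notch2 read 12.25, 11.997 and 12.31 in GFP positive cells, against 11.79, 11.94 and 11.80 in GFP negative cells. Its groups were apart by 0.34 (SE 0.17, 95% interval −0.06 to 0.75), or 1.27-fold, which did not pass (limma adjusted p = 0.365), and by 0.18 with array weights. A further probe set of Notch2 lay near background on all arrays, at 2.23 to 2.29. Notch1, the receptor best known from neural progenitors, read 12.92, 12.52 and 12.25 in GFP positive cells, against 12.44, 12.62 and 12.98 in GFP negative cells. The ranges overlapped in part, with a difference of −0.11 (SE 0.24, 95% interval −0.68 to 0.45; limma adjusted p = 0.869). Its other probe set differed by 0.03 (SE 0.21).

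Of the ligands, Dll1 was lower in GFP positive cells on every array, Jag1 overlapped and Dll3 was near background. Dll1, a Delta ligand known from committed progenitors, read 9.23, 8.79 and 8.89 in GFP positive cells, against 9.36, 9.57 and 9.68 in GFP negative cells. The difference was −0.57 (SE 0.20, 95% interval −1.03 to −0.11), or 1.48-fold lower, and did not pass (limma adjusted p = 0.175). Of 16 alternatives it passed in 1, with array weights, which set arrays that vary more at a lower weight (−0.66, limma adjusted p = 0.0377). In that fit 1654 of the 10531 genes tested passed. Over the alternatives the limma adjusted p of Dll1 ran up to 0.548.

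Dll3, a Delta family member that does not activate receptors in neighbouring cells, read 2.86, 2.90 and 2.81 in GFP positive cells, against 3.72, 3.54 and 4.27 in GFP negative cells. The groups did not overlap, but 5 of the 6 values lay under log2 4, so the gene was not tested and its difference of −0.99 depends on the background correction. Fitted without a filter it had a limma adjusted p of 0.101. Jag1, a Jagged ligand, read 10.56, 10.63 and 10.74 in GFP positive cells, against 10.66, 11.26 and 10.36 in GFP negative cells. GFP negative arrays held both the highest and the lowest of these values, and the difference was −0.12 (SE 0.25, 95% interval −0.71 to 0.47; limma adjusted p = 0.867). A dimmer probe set of Jag1 differed by −0.21 (SE 0.30), and another lay near background at 2.16 to 2.29.

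**Figure D3:**
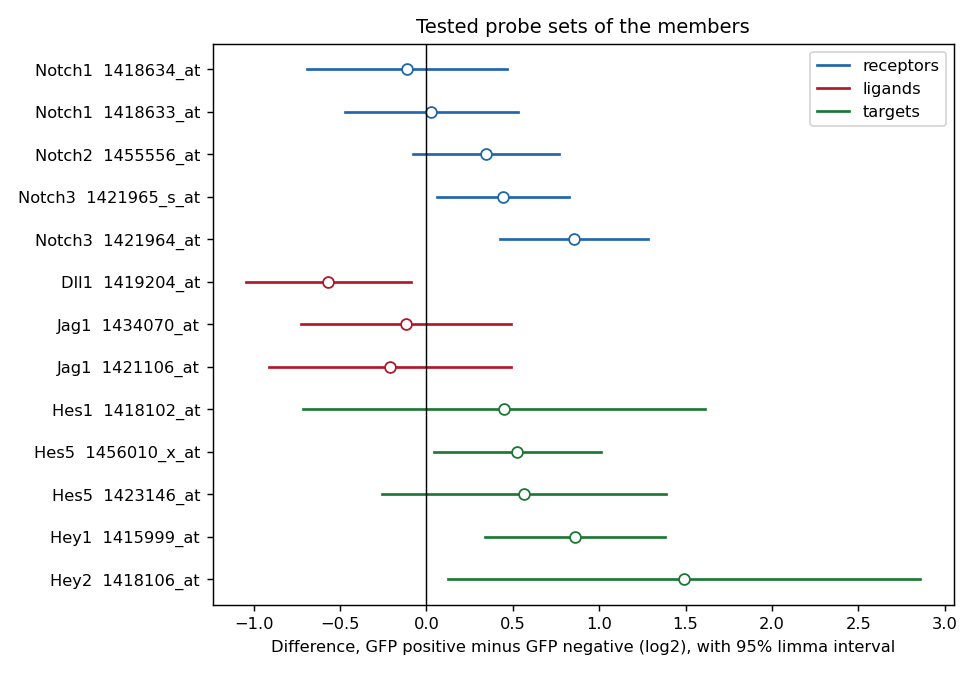
Log2 difference, GFP positive minus GFP negative, with 95% limma interval for the 13 member probe sets tested, in a fit of all probe sets (blue receptors, red ligands, green targets; open circles, none with an adjusted p under 0.05). The probe sets of Notch3 lie at 0.44 and 0.85, those of Hes5 at 0.53 and 0.57, and those of Jag1 and Notch1 near 0.

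Of the other genes of the pathway, 59 were listed, 55 had a probe set and 42 were tested; 4 are not analysed here. Among the 42 tested 1 fell, Neurl1a, and 0 rose, beside 4.46% of all genes. Without adjustment 3 were higher and 4 lower by limma at p under 0.05, beside 9.92% higher and 8.28% lower of all genes tested. The median difference of the 42 was 0.04. Neurl1a encodes a ubiquitin ligase of the Neuralized family, which in Drosophila drives endocytosis of Delta in the signal-sending cell. It read 3.10, 2.63 and 2.38 in GFP positive cells, against 4.32, 4.18 and 4.38 in GFP negative cells. Neurl1a met the filter of log2 4 through the GFP negative arrays alone, so a gene admitted this way had to be lower in GFP positive cells. Its GFP positive values lie at the low floor of the method, and its difference of −1.59 (SE 0.22, limma adjusted p = 0.0158) is given as a value and supports nothing about the list. That call ended when any 1 GFP positive array or GFP negative replicate 2 was left out, with limma adjusted p between 0.0524 and 0.0799.

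Outside the naming rule, and picked after their values were seen, 3 more genes are given for their place beside the members. Neurl1b, the other Neuralized ligase, read 6.37, 7.31 and 6.62 in GFP positive cells, against 7.84, 7.99 and 8.54 in GFP negative cells. The groups were apart by −1.36 (SE 0.30), or 2.57-fold lower, and missed the threshold (limma adjusted p = 0.0532); with array weights it was −0.82 (limma adjusted p = 0.125). Over all 16 alternatives its limma adjusted p ran from 0.0454 to 0.224. Nrarp, a Notch target that feeds back on the pathway, read 8.83, 8.97 and 9.17 in GFP positive cells, against 8.41, 7.47 and 6.92 in GFP negative cells. It was 2.62-fold higher without passing (1.39, SE 0.36, limma adjusted p = 0.0850), and as single arrays were left out it ran from 1.05 to 1.79, passing in 1 of 6 fits, without GFP negative replicate 1 (limma adjusted p from 0.0252 to 0.287). Tle1, a Groucho corepressor that Hes proteins recruit, read 8.005, 7.81 and 7.93 in GFP positive cells, against 6.82, 7.06 and 7.62 in GFP negative cells. Its difference of 0.75 (SE 0.24, limma adjusted p = 0.142) ran from 0.58 to 0.97 as single arrays were left out and passed in 1 of 6 fits, without GFP negative replicate 3 (limma adjusted p from 0.0172 to 0.391). With the mean of its probe sets it was 0.39 (limma adjusted p = 0.434). Other Tle genes went the other way. Tle4 was lower without overlap (−0.41, SE 0.20, limma adjusted p = 0.331), and Tle2 overlapped (−0.47, SE 0.28, limma adjusted p = 0.462). Tle3 is given below.

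Other steps of the pathway gave no call besides that of Neurl1a, which with a filter of log2 6 was not tested. Rbpj, the DNA-binding partner of the cleaved receptors, read 9.95, 9.96 and 9.83 in GFP positive cells, against 10.11, 10.24 and 10.15 in GFP negative cells, a difference of −0.25 (SE 0.16, limma adjusted p = 0.491). With the mean of its probe sets Rbpj differed by −0.07 (limma adjusted p = 0.886). Of 8 tested genes of receptor cleavage, 0 passed. The brightest, Adam10, the protease of the first cleavage after ligand binding, differed by −0.04 (SE 0.24). Psen2 of the same list, named after its values were seen, was higher without overlap (0.61, SE 0.26, limma adjusted p = 0.267). It passed with array weights, where 1654 of all genes tested did. Of 5 tested glycosyltransferases, which modify the receptors, 0 passed, with Lfng at 0.15 (SE 0.20; 0.02 to 0.31 over the alternatives) and Poglut1 at −0.05 (SE 0.17). Of 13 tested genes of endocytosis and turnover, Numb, an inhibitor of Notch, differed by 0.03 (SE 0.24), and Aak1, a kinase of endocytosis, by 0.08 (SE 0.17). Of 11 tested genes of the nuclear complex and its corepressors 0 passed, with Tle3 at 0.18 (SE 0.17). Dner, a ligand-like membrane protein, differed by −0.13 (SE 0.21), on a probe set with a cross-hybridisation suffix, and by −0.35 without suffixed probe sets.

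Hes6, a Hes family gene that is known to oppose Hes1 and to favour neuronal differentiation, read 11.84, 11.60 and 11.49 in GFP positive cells, against 12.10, 12.17 and 12.53 in GFP negative cells. It was read from a suffixed probe set, did not overlap and differed in the direction opposite to the 4 Notch targets (−0.62, SE 0.20, 95% interval −1.09 to −0.16; limma adjusted p = 0.142). Heyl, another Hey family gene, lay near background on all arrays, at 2.40 to 2.54. Of the proneural genes that Hes proteins repress 2 were tested and 0 passed. Neurod1, a neuronal differentiation factor also named after its values were seen, differed by −1.06 (SE 0.27, limma adjusted p = 0.0796), or −0.63 with array weights, and Olig2, a factor of progenitors and oligodendrocytes, by −0.20 (SE 0.16, limma adjusted p = 0.599).

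**Figure D4:**
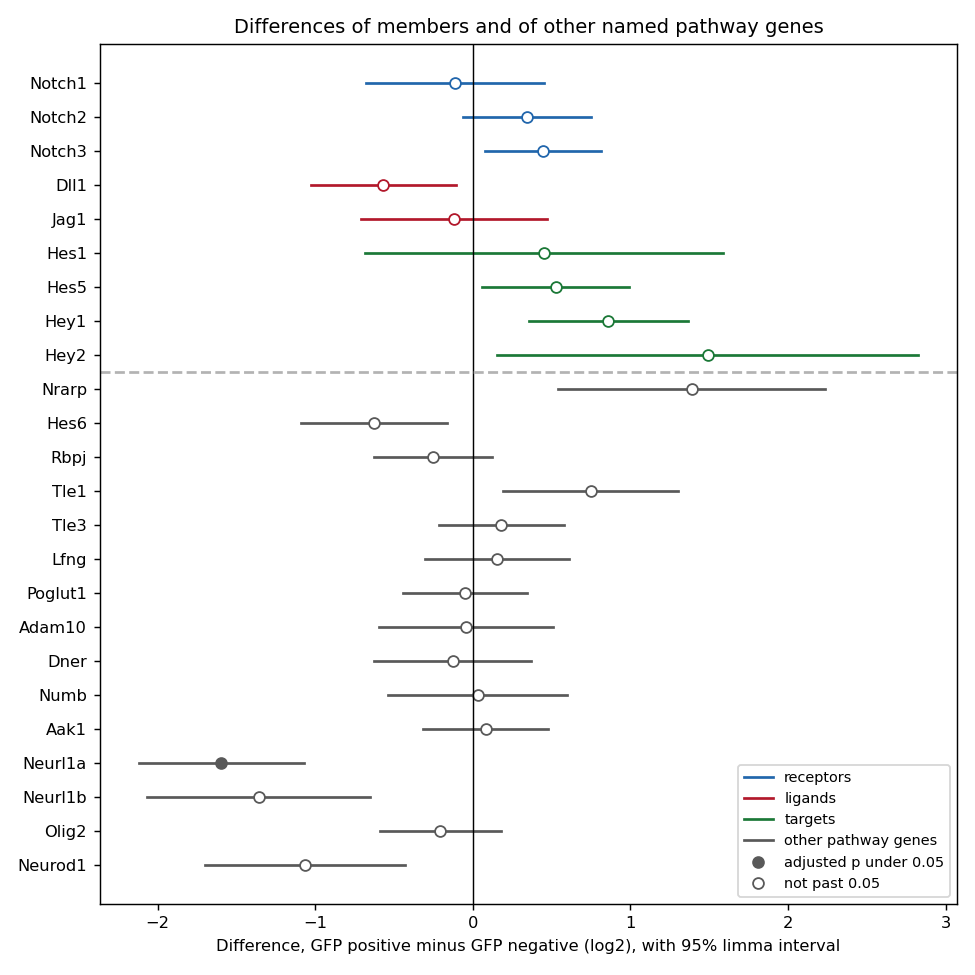
Log2 difference, GFP positive minus GFP negative, with 95% limma interval for the 9 tested members (blue receptors, red ligands, green targets) and, under the dashed line, for other named pathway genes (grey); a filled circle marks an adjusted p under 0.05. The 1 filled circle is Neurl1a, at −1.59, which met the filter through the GFP negative arrays alone and lies at the low floor on the GFP positive ones. The 4 targets, Notch2, Notch3, Nrarp, Tle1, Tle3, Lfng, Numb and Aak1 lie to the right of 0. To the left lie Notch1, Dll1, Jag1, Hes6, Rbpj, Poglut1, Adam10, Dner, Olig2, Neurod1 and both Neuralized genes. Nrarp, Tle1, Neurl1b and Neurod1 were picked after their values were seen.

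A pair of other gene lists, of cell division and of astrocytes, was read on the same arrays. Relative to the mean of each gene over the arrays, the median of 11 cell division genes was −1.001, −0.60 and −1.46 in GFP positive replicates 1 to 3. It was 0.61, 1.10 and 1.46 in GFP negative replicates 1 to 3. Of the 11 genes 10 fell, beside 2.11% of all genes tested. Among these 10 was Plk1, which read 3.11, 3.48 and 2.74 in GFP positive cells. Plk1 met the filter of log2 4 through the GFP negative arrays alone, so it had to be lower in GFP positive cells. The median of 9 tested astrocyte markers was 0.52, 0.41 and 0.54 in GFP positive replicates, against −0.46, −0.47 and −0.41 in GFP negative replicates. Of these 9 markers 4 rose, beside 2.35% of all genes tested. Gfap, among these 4, and Slc1a3 are also on the neural stem cell list. GFP negative replicate 3 was highest for cell division. Of the 9 tested members it was lowest for Notch3, Jag1, Hey1 and Hey2, highest for Notch1 and Dll1, and second highest for Hes1, while Notch2 and Hes5 were lowest on GFP negative replicate 1. The astrocyte median did not set that array apart from the other GFP negative arrays. Whether these differences have a part in those of the Notch genes was not tested.

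**Figure D5:**
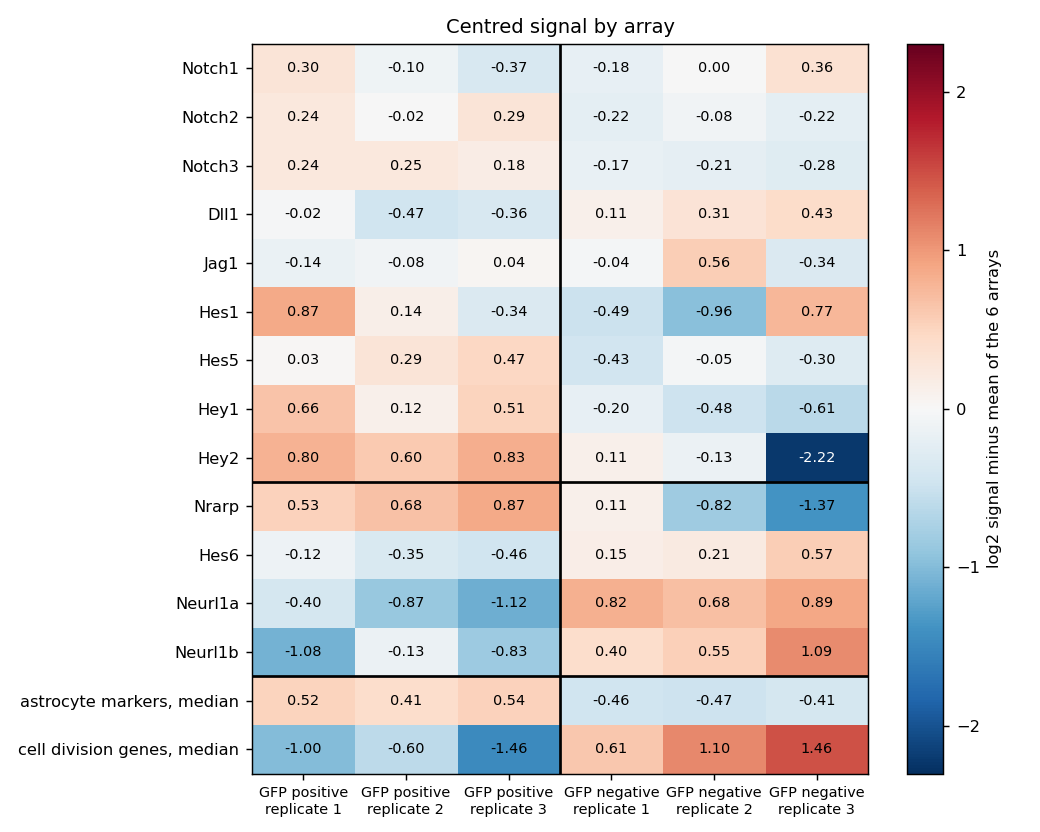
Log2 signal minus the mean of the 6 arrays for the 9 tested members, 4 other pathway genes and, in the bottom rows, the medians of 9 astrocyte markers and 11 cell division genes, by array (red above the mean, blue below). Hey2 is at −2.22 and Nrarp at −1.37 on GFP negative replicate 3, where cell division is at 1.46 and Hes1 at 0.77.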

How the data were processed

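Per the submitters' processing notes the authors used GCRMA to make the deposited log2 signals; no version or build is given in the sources used here. This method adjusts background by probe sequence and brings arrays to one distribution, so that dim signals gather at a low floor and a shift of all genes would be hidden. Names for the 45101 probe sets came from GEO's platform annotation, and 10531 genes entered limma 3.58.1 in R 4.3.3 (lmFit, eBayes, no covariate; Benjamini-Hochberg over all genes tested, threshold 0.05, 2-sided, 95% intervals). Probe sets were also fitted separately, 18742 of them, with the same filter of log2 4 on at least 3 arrays. The number of arrays, 3 per group, limits the precision. The fit was tested on simulated data. The members, the gene lists and the tests were chosen with earlier results of these data known.

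Named were all members, pathway genes past the threshold, the brightest tested gene of each pathway list and a fixed few (Rbpj, Lfng, Numb, Heyl and Hes6 among them). Alternatives were no filter or log2 6, quantile or median scaling, other choices of probe set, trend and robust moderation, array weights, a replicate block and each array left out; a 3′ to 5′ covariate was added after seeing the data. Arrays were left out with probe sets and tested genes held fixed. No sequence of the array's probes was used; promoters came from RefSeq.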

Additional observations from a re-analysis of the deposited data

How the results depend on the processing

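With all 6 arrays at equal weight 0 of 9 members, 0 of 13 member probe sets, 1 of 42 other pathway genes and 470 of all tested genes passed. With each array left out in turn these counts ran from 0 to 1, 0 to 1, 0 to 2 and 1 to 1244, the highest total without GFP negative replicate 3 and the lowest without GFP positive replicate 3. Without a filter 1 member and 1 member probe set passed (Notch3), and 294 of all genes. Without suffixed probe sets 1 member passed (Notch3), with trend and robust moderation 1 member (Hey1) and 1 probe set (Notch3). With array weights 1 member (Dll1), 1 probe set (Notch3), 6 other pathway genes and 1654 of all genes passed. With quantile normalization and with the mean of probe sets per gene 2 other pathway genes passed, Neurl1a and Neurl1b, and with a filter of log2 6 the 1 that passed was Neurl1b, as Neurl1a was then not tested. With the 3′ to 5′ covariate 0 other pathway genes and 1 of all genes passed. With the replicate number as a block 0 members, 0 other pathway genes and 27 of all genes passed. Deviations of same-numbered arrays correlated at −0.25, 0.05 and −0.50, and those of differently numbered arrays at −0.38 to 0.44. With 3 arrays per group these values cannot decide whether the numbers pair the arrays. The labels do not say that they do, so the main fit used no pairing. Whether the numbers mark a shared batch was not tested. The cause of these changes was not tested.

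Directions turned for some small differences. Leaving out single arrays, the difference ran from −0.29 to 0.042 for Notch1, −0.32 to 0.13 for Jag1, −0.26 to 0.0024 for Dner, −0.21 to 0.12 for Adam10, −0.11 to 0.038 for Poglut1 and −0.16 to 0.18 for Numb. Adam10 was 0.025 and Poglut1 0.019 with a common median, Aak1 was −0.24 and Tle3 −0.041 with the mean of probe sets, and with the covariate Jag1 was 0.12 and Adam10 0.020. Hes1, Hes5, Hey1, Hey2, Notch2, Notch3 and Dll1 kept their sign in all alternatives that could be run; for those whose groups do not overlap, leaving out an array had to keep it. Hes5, Neurl1a and Dll3 near background limit what their folds can show.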

Other observations

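In each role the tested member with the widest range over the arrays was set beside all other tested genes, by the root mean square difference over the 6 arrays after each gene was centred on its own mean. For Hey2 the nearest were Ano1, a calcium-activated chloride channel, at 0.17, Usp53 at 0.26 and Trim34a at 0.28 on the log2 scale. All 3 were low on GFP negative replicate 3, where Ano1 read 3.29, against 5.16 and 4.93 on the other GFP negative arrays and 5.66 to 5.94 on the GFP positive ones. Ano1 differed by 1.37 (limma adjusted p = 0.168), and none of the 3 passed the test. For Notch1 the nearest were Lin37, a subunit of a cell cycle repressor complex, at 0.03, Pwwp3a at 0.04 and Bccip at 0.05, and for Jag1 they were Chodl at 0.03, Csnk1g1 at 0.05 and Enpp4 at 0.05. These likenesses rest on 6 arrays, follow the spread within groups as well as the groups, and say nothing of shared function or control.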
